A study of Homo sapiens with 12 samples.

Results

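The clustered protocadherins were taken as the protein-coding genes of GENCODE v44 named PCDHA, PCDHAC, PCDHB, PCDHGA, PCDHGB or PCDHGC with a number. This gave 53 genes, 15 in the alpha, 16 in the beta and 22 in the gamma cluster, of which 52 were listed among the 63677 identifiers of the count tables. The identifier of PCDHGB5 was not analysed here. All 53 lie on the plus strand of chromosome 5 (GRCh38), the listed members within positions 140786136 to 141512977, a span of 727 kb.

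Clustered protocadherins are cell-surface adhesion proteins that bind copies of themselves on neighbouring cells. In the nervous system each neuron uses a different mix of them, which lets it tell its own branches from those of other cells. In the alpha and gamma clusters each member has its own promoter and 1 large variable exon, spliced to constant exons that the whole cluster shares, whereas beta members are self-contained single genes. Promoter choice depends on CTCF and cohesin, which bind a conserved promoter element and fold it towards distant enhancers. DNA methylation of these promoters marks silent members, and 5-Aza belongs to the inhibitors of DNA methyltransferases.

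Total RNA was sequenced from MiaPaca2 cells, an established human pancreatic cancer cell line, in 4 groups of 3 libraries each after 24 h. Con cells received DMSO, CPT cells received 1 µM calcipotriol, an analogue of vitamin D, GTA+5-Aza cells received 2 mM glyceryl triacetate, a donor of acetate, with 1 µM 5-Aza, and CPT+GTA+5-Aza cells received all 3 agents. GTA and 5-Aza were not given apart from each other, and no genotype was changed. The study's methods speak of independent samples in each experiment, while neither they nor the labels say whether the 3 libraries of a group came from separate cultures, so p-values measure the spread between these libraries.

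Libraries held 16162490 to 21224665 counts, and a count of 0 allows up to 3 counts in a library, a limit that covers counting error only. Of 8 genes chosen to mark the line, 6 were tested, among them KRT8, KRT18 and VIM, while EPCAM and CDH1 held 2 and 12 counts over all 12 libraries. Of these 6, 1 was called higher and 1 lower in GTA+5-Aza against Con (33.3%, beside 17.5% of all genes). In CPT+GTA+5-Aza against CPT, 3 were called higher and 1 lower (66.7%, beside 17%), and against Con 1 higher and 1 lower (33.3%, beside 16.8%). Of 11 neuron markers listed, ELAVL4, STMN2, NEFM and GAP43 were at 0 in every library, and the summed level of the list ran from 112 to 123 CPM (counts per 1000000 of the scaled library size) in Con, 106 to 125 in CPT, 95.8 to 111 in GTA+5-Aza and 87.4 to 101 in CPT+GTA+5-Aza. Of the 6 neuron markers tested, 1 was called higher and 1 lower between GTA+5-Aza and Con (33.3%, beside 17.5% of all genes). The 8 fibroblast markers, with LUM and FAP at 0 throughout, summed to 880 to 932 CPM in Con, 780 to 848 in CPT, 988 to 1069 in GTA+5-Aza and 917 to 942 in CPT+GTA+5-Aza. COL1A2 made up most of this sum, at means of 810, 729, 897 and 829 CPM in that order. Only 3 of the 8 were tested, and all 3 were called higher between GTA+5-Aza and Con, beside 17.5% of all genes. In CPT+GTA+5-Aza, 2 were called higher against CPT and 1 against Con. Of 9 acinar and ductal markers 5 were at 0, and the list summed to 168 to 178, 154 to 167, 218 to 232 and 227 to 237 CPM in the same order of groups. SOX9 made up nearly all of this sum, at means of 167, 154, 218 and 224 CPM. Of the 4 acinar and ductal markers tested, 2 were called higher and 0 lower in GTA+5-Aza against Con (50%, beside 17.5%). In CPT+GTA+5-Aza, 1 was called higher against CPT (25%, beside 17%) and 2 against Con (50%, beside 16.8%), with 0 lower. The part of these markers in the results on protocadherins was not tested.

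The promoters are shown first because the clusters differ there by sequence family. RefSeq promoters (GRCh38.p14, 250 bases before to 50 after the start) were matched for 47 of the 53 genes. The 4 letters CGCT, on either strand, were in 46 of these 47 promoters (97.9%) and in 70% of all 35116 promoters of the table. Each cluster carried its own longer run around this core, chosen after the sequences had been seen and searched on both strands. GATGTCGCT was in 9 of 13 alpha promoters and in 0.105% of all promoters. GTGGCGCT was in 13 of 14 beta promoters and in 1.15% of all. CGCTG followed by any 4 bases and CCA was in 13 of 20 gamma promoters, in 6 promoters of the other clusters and in 1.73% of all. The windows below run 5′ to 3′ on the plus strand from 20 bases before to 20 bases after the core, which is in capitals, and are given for the highest member of alpha and of beta, for the silent PCDHA1 and PCDHB16, and for gamma members described below.
PCDHA4 (chr5:140806975-140807018): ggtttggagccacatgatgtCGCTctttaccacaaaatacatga
PCDHA1 (chr5:140786082-140786125): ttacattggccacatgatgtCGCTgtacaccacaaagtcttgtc
PCDHB14 (chr5:141223259-141223302): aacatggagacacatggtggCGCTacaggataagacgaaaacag
PCDHB16 (chr5:141182306-141182349): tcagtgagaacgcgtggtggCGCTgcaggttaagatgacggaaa
PCDHGB1 (chr5:141350021-141350064): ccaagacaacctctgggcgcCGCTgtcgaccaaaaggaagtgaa
PCDHGA11 (chr5:141420968-141421011): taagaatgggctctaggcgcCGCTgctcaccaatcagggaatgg
PCDHGC3 (chr5:141475876-141475919): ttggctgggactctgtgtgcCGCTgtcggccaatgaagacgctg
PCDHGC4 (chr5:141484948-141484991): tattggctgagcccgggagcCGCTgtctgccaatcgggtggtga

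Within these windows the alpha pair shares the letters ccacatgatgt before the core and the beta pair shares ggtgg. PCDHA1 and PCDHB16, which had no count in any library, carry the core as PCDHA4 and PCDHB14 do. PCDHAC1 and PCDHB1, which also had no count, did not hold the longer run of their cluster. The same was true of PCDHA9, PCDHA11 and PCDHAC2, which had counts. Among the promoters where the longer run lay before the start site, the first base of the core was 38 to 81 bases before the start in 9 alpha members (median 48), 11 to 79 in 12 beta members (median 61.5) and 39 to 81 in 13 gamma members (median 62). The longer gamma run was not in the window of PCDHGB7, the second-highest member, nor in those of PCDHGB3 and PCDHGA10. The number of CG pairs per promoter had a median of 7 over the matched members, with a range of 2 to 27, against a median of 14 over all promoters. A match is a description of the letters and not evidence of binding.

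**Figure D1:**
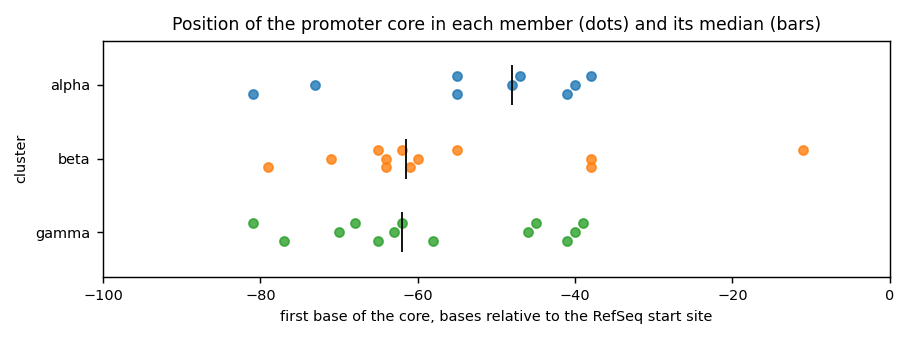
Position of the first base of the promoter core relative to the RefSeq start site, in bases, for the members whose promoter held the longer run of their cluster before the start (dots) with the median of each cluster (bars). The cores lie 11 to 81 bases before the start, with medians of 48 in alpha, 61.5 in beta and 62 in gamma.

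The gene structure limits what the counts can say. In GENCODE v44 all listed alpha members share 2869 exonic bases and all listed gamma members share 2177, so a read in those constant exons cannot be assigned to 1 member, and a member's count rests on its own variable exon. Own exonic length ran from 2572 to 10557 bases in alpha, 2750 to 7973 in beta and 2459 to 5752 in gamma. Sequences 150 bases long that recur elsewhere in the clusters made up at most 16% of a member's own exon in alpha, 17.9% in beta and 14.8% in gamma. Strandedness and annotation release of the counting are not given in the sources used here.

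MiaPaca2 cells had 1 clustered protocadherin at a high count, PCDHGC3, a few gamma members such as PCDHGB7 at 29 to 70 counts per library, and most others at or near 0. PCDHGC3, a gamma C-type member, held 13202 of the 16630 member counts (79.4%, Wilson 95% interval 78.8% to 80%). That interval covers the counting error of the pooled counts only and not the spread between libraries, in which the share ran from 76.3% to 82.7%. Over all 12 libraries PCDHGC3 was at 18 CPM per kb of own exon, 21.6 times the level per kb of the next member, PCDHGB7. It stood at the 76th percentile of mean CPM among the 17123 genes tested, whereas the other 15 tested members lay between percentiles 0.164 and 24.7. C-type members are known for use by most neurons rather than by chance choice, and the 5 of them differed widely here. PCDHAC1 had no count, PCDHAC2 had 12 counts over the 12 libraries, and PCDHGC4 and PCDHGC5 were at 0.1 and 0.153 CPM per kb.

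PCDHGB7 and PCDHGB1 followed PCDHGC3, at 0.835 and 0.825 CPM per kb, both from the B subfamily of gamma. PCDHGB7 had 29 to 70 counts per library and PCDHGB1 had 24 to 68, so these neighbours in the order did not differ beyond their spread. PCDHGA4 came next at 0.446 CPM per kb and PCDHGB2 at 0.383.

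In beta, PCDHB14 (0.155), PCDHB11 (0.0461) and PCDHB15 (0.046) had the highest CPM per kb. PCDHB11 had 0 to 11 counts in a library and PCDHB15 had 0 to 6. In alpha, the highest were PCDHA4 (0.0404), PCDHA3 (0.0164) and PCDHAC2 (0.016). PCDHA4 had 1 to 14 counts in a library and PCDHA3 had 0 to 6. The alpha cluster summed to 167 counts over 12 libraries and the beta cluster to 318, against 16145 in gamma, of which 2943 were not PCDHGC3.

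**Figure D2:**
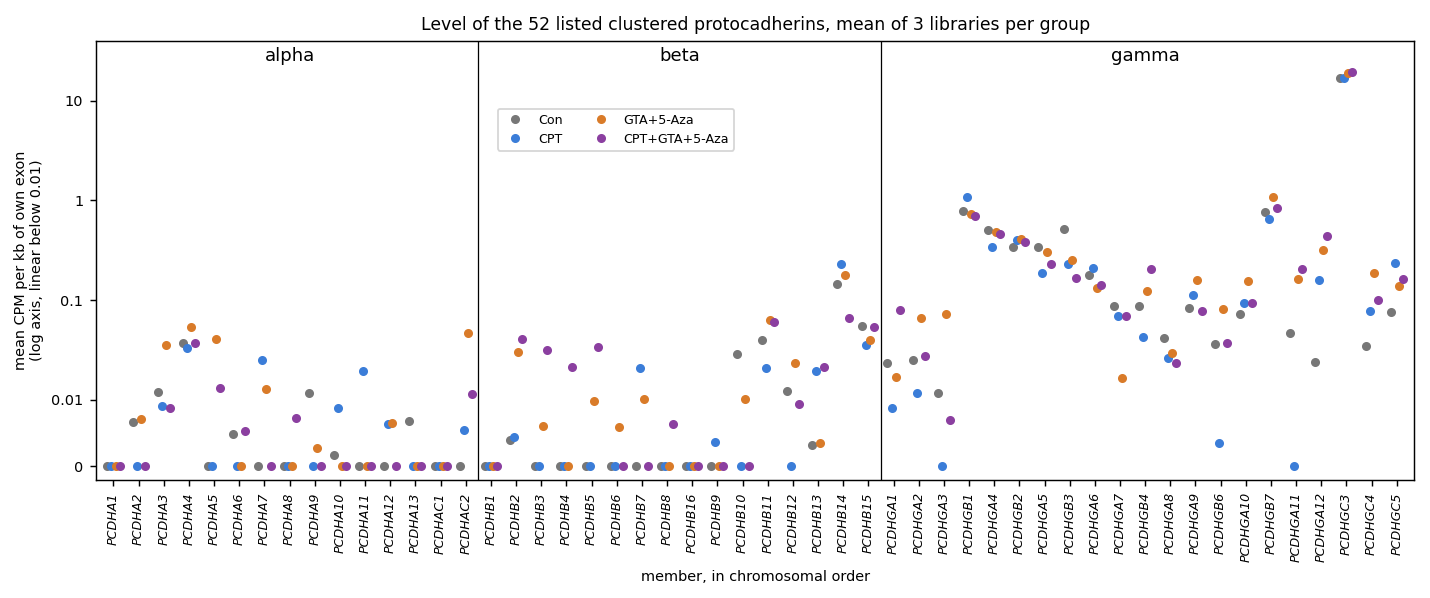
Mean CPM per kb of own exon (vertical, log axis, linear below 0.01) of the 52 listed members in chromosomal order, 1 dot per group as the mean of 3 libraries. PCDHGC3 stands at 18 CPM per kb over all libraries, the other gamma members below it, and many alpha and beta members at 0.

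Of the 52 members, 16 passed edgeR's filter on low counts and were tested, namely 1 of alpha (PCDHA4), 1 of beta (PCDHB14) and 14 of gamma. The other 36 had at most 14 counts in any library. PCDHA1, PCDHAC1, PCDHB1 and PCDHB16 had no count at all, and 11 members had counts in every library. Members with at least 1 count numbered 22 to 26 per library in Con, 22 to 24 in CPT, 30 to 31 in GTA+5-Aza and 25 to 30 in CPT+GTA+5-Aza. GTA+5-Aza thus lay above Con and CPT in every library, while CPT+GTA+5-Aza overlapped Con. Over the whole table, genes with at least 1 count numbered 22397 to 23106 in Con and 21831 to 22471 in CPT. They numbered 22987 to 23442 in GTA+5-Aza and 22353 to 23212 in CPT+GTA+5-Aza. The table as a whole thus overlapped between GTA+5-Aza and Con, whereas GTA+5-Aza lay above CPT in every library there too.

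The summed level by cluster is given as a description. Alpha held 11 to 13 counts per library in Con, 10 to 16 in CPT, 15 to 27 in GTA+5-Aza and 2 to 15 in CPT+GTA+5-Aza. Beta held 20 to 32, 19 to 38, 25 to 36 and 15 to 34 counts in the same order, and all 4 ranges overlap. Gamma without PCDHGC3 summed to 12.2 ± 1.75 CPM in Con, 11.7 ± 1.38 in CPT, 14.8 ± 1.22 in GTA+5-Aza and 13.3 ± 0.964 in CPT+GTA+5-Aza (SD, n = 3 each). In bulk RNA, fewer cells expressing a gene and less RNA per cell cannot be told apart.

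Priming with GTA+5-Aza, without or with CPT, was compared first. In GTA+5-Aza against Con, 1 of the 16 tested members was called at an adjusted p under 0.05 by edgeR's quasi-likelihood test, beside 17.5% of all 17123 genes, and 3 passed the thresholds of the study (unadjusted P below 0.05 with more than 1.5-fold change), beside 8.44%. For CPT+GTA+5-Aza against CPT, 1 was called, beside 17%, and 3 passed the study's thresholds, beside 8.67%. For CPT+GTA+5-Aza against Con, 1 was called, beside 16.8%, and 3 passed the study's thresholds, beside 8.32%. The calls were PCDHGA12, PCDHGA11 and PCDHGA12, in that order, and all were higher with priming. With 16 members tested, 1 call is 6.25%, a smaller share than in the whole table, whereas 3 past the study's thresholds are 18.8%, a larger share in each of these comparisons. At an edgeR unadjusted P under 0.05 alone, 3, 4 and 4 members passed (18.8%, 25% and 25%). Of all 17123 genes, 5041, 5013 and 5015 passed that rule, a larger share than of the members. The larger share of members thus held only with the 1.5-fold cut. The first and the third comparison share the Con libraries, and the second and the third share the CPT+GTA+5-Aza libraries.

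PCDHGA12, the last A-type member of gamma, had 0, 0 and 4 counts in Con, 4, 13 and 8 in CPT, 14, 27 and 9 in GTA+5-Aza, and 39, 13 and 13 in CPT+GTA+5-Aza. Every library of both primed groups was above every Con library, and the primed groups overlapped CPT by count. Levels were 0.0648 ± 0.112 CPM in Con, 0.432 ± 0.21 in CPT, 0.869 ± 0.435 in GTA+5-Aza and 1.2 ± 0.747 in CPT+GTA+5-Aza (SD, n = 3 each). It rose in GTA+5-Aza against Con by 3.60 ± 0.90 on the log2 scale (SE, edgeR adjusted p = 0.00613) and in CPT+GTA+5-Aza against Con by 4.06 ± 0.89 (edgeR adjusted p = 0.00197). PCDHGA12 passed the filter on low counts mainly through the primed libraries, where it was high. With no such filter the adjusted p values were 0.000627 and 5.87e-05, and with CPM of at least 1 required in 3 libraries it was not tested. Its 4 Con counts lie in replicate 3, and without that library the fitted log2 values were 7.04 and 7.50, which depend on the prior count because the remaining Con libraries had no count. The log2 difference was 1.46 ± 0.70 in CPT+GTA+5-Aza against CPT (edgeR adjusted p = 0.165).

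PCDHGA11 is the A-type neighbour of PCDHGA12, starting 9.46 kb before it with no other member between them. It had 6, 4 and 0 counts in Con, 0, 0 and 0 in CPT, 12, 16 and 6 in GTA+5-Aza, and 14, 20 and 6 in CPT+GTA+5-Aza. The primed libraries were all at or above the highest unprimed one by count. It rose in CPT+GTA+5-Aza against CPT (edgeR adjusted p = 0.00167). PCDHGA11 passed the filter on low counts through the primed libraries, where it was high. With no such filter the adjusted p was 0.000132, whereas it was not tested with only those groups in the fit or with CPM of at least 1 required in 3 libraries. Since no CPT library had a count, the change is given as a bound, which takes the CPT+GTA+5-Aza mean as exact. That mean, 0.747 ± 0.384 CPM (SD, n = 3), was 4.71 times the 0.159 CPM that 3 counts in each CPT library would give. In GTA+5-Aza against Con the log2 difference was 1.80 ± 0.85 (edgeR adjusted p = 0.158), and in CPT+GTA+5-Aza against Con it was 2.13 ± 0.84 (edgeR adjusted p = 0.0874).

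**Figure D3:**
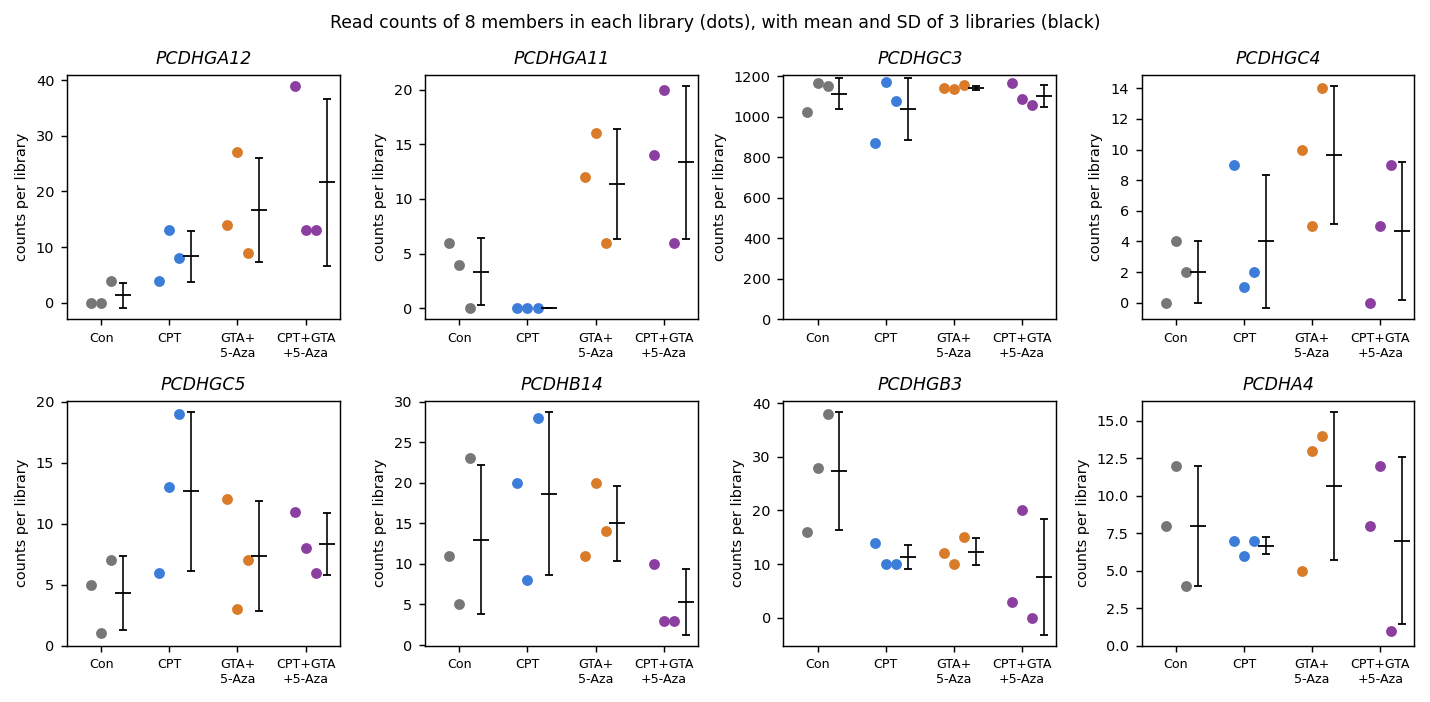
Read counts per library (dots) of 8 members in the 4 groups, with the mean and SD of 3 libraries in black. PCDHGA12 and PCDHGA11 have 0 to 6 counts in Con and 6 to 39 in the primed groups, PCDHGC3 has 870 to 1170 counts throughout, and the groups of the other 5 members overlap for most comparisons.

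PCDHGC3 had 1025, 1165 and 1153 counts in Con, 870, 1170 and 1077 in CPT, 1142, 1135 and 1155 in GTA+5-Aza, and 1166, 1086 and 1058 in CPT+GTA+5-Aza. The raw counts, from libraries of unequal depth, overlap between all 4 groups. After scaling, PCDHGC3 ran from 53.9 to 56.1 CPM in Con, 47.8 to 58.8 in CPT, 56.8 to 65.2 in GTA+5-Aza and 61.6 to 64.8 in CPT+GTA+5-Aza, so every primed library lay above every Con library, and GTA+5-Aza overlapped CPT. Mean levels were 55.2 ± 1.12 CPM in Con, 54.7 ± 5.99 in CPT, 61 ± 4.18 in GTA+5-Aza and 62.7 ± 1.82 in CPT+GTA+5-Aza (SD, n = 3 each). The log2 difference was 0.15 ± 0.09 in GTA+5-Aza against Con (edgeR adjusted p = 0.272), 0.20 ± 0.09 in CPT+GTA+5-Aza against CPT (0.124) and 0.18 ± 0.09 in CPT+GTA+5-Aza against Con (0.148). With an SE of 0.09, this was the member measured most precisely, and none of the 3 differences passed after adjustment, while the second and the third had an unadjusted P of 0.0311 and 0.0407.

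The remaining C-type members of gamma were not called. PCDHGC4 had 0, 4 and 2 counts in Con, 9, 1 and 2 in CPT, 10, 5 and 14 in GTA+5-Aza, and 0, 5 and 9 in CPT+GTA+5-Aza. GTA+5-Aza lay above Con in every library, with a log2 difference of 2.33 ± 1.04 (edgeR unadjusted P = 0.0334, adjusted p = 0.128), and CPT+GTA+5-Aza overlapped every group. PCDHGC5 had 5, 1 and 7 counts in Con, 6, 13 and 19 in CPT, 12, 3 and 7 in GTA+5-Aza, and 11, 8 and 6 in CPT+GTA+5-Aza, and the ranges of all 4 groups overlapped.

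PCDHB14, the highest beta member, had 11, 5 and 23 counts in Con, 20, 8 and 28 in CPT, 11, 20 and 14 in GTA+5-Aza, and 10, 3 and 3 in CPT+GTA+5-Aza. Its log2 difference in CPT+GTA+5-Aza against CPT was -1.72 ± 0.70 (edgeR adjusted p = 0.0916), and leaving out 1 library at a time gave -2.46 to -1.30 with adjusted p from 0.0368 (without CPT replicate 2, at -2.12) to 0.325 (without CPT replicate 3, at -1.30). PCDHGB3, named after its values had been seen, had 16, 28 and 38 counts in Con, 14, 10 and 10 in CPT, 12, 10 and 15 in GTA+5-Aza, and 3, 20 and 0 in CPT+GTA+5-Aza. Its log2 difference in CPT+GTA+5-Aza against Con was -1.62 ± 0.72 (edgeR adjusted p = 0.128), and leaving out 1 library at a time gave -3.90 (adjusted p = 0.00693, without CPT+GTA+5-Aza replicate 2, the library with 20 counts) to -1.06 (adjusted p = 0.37, without CPT+GTA+5-Aza replicate 3). PCDHA4, the only alpha member tested, had a log2 difference of 0.52 ± 0.73 in GTA+5-Aza against Con and of 0.15 ± 0.76 in CPT+GTA+5-Aza against CPT (edgeR adjusted p = 0.7 and 0.923).

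Over the 16 tested members, 11 log2 values were positive and 5 negative in GTA+5-Aza against Con, with a median of 0.40, against 0.01 over all genes tested. Signs were 8 positive and 8 negative for CPT+GTA+5-Aza against CPT, where the median was 0.07, also with PCDHGA11 at its bound, against 0.01 over all genes. They were again 8 and 8 in CPT+GTA+5-Aza against Con, with a median of 0.06. A median over members that passed a filter on low counts is a description of these 16 only.

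Among the 36 untested members, 7 had counts in primed libraries and none in the 6 unprimed ones (PCDHA5, PCDHA8, PCDHB3, PCDHB4, PCDHB5, PCDHB6 and PCDHB8), with at most 13 counts over the 6 primed libraries. The reverse held for 4 (PCDHA10, PCDHA11, PCDHA13 and PCDHB9), with at most 6 counts. These 11 were named after their values had been seen. Of the 32 untested members with any count the shares were 21.9% and 12.5%, beside 21% and 14.9% of the 14877 untested genes with any count in the whole table. The untested members together held 23 to 49 counts per library in Con, 19 to 29 in CPT, 39 to 75 in GTA+5-Aza and 40 to 61 in CPT+GTA+5-Aza, so that Con overlapped both primed groups by count while every primed library lay above every CPT library. By summed CPM, CPT+GTA+5-Aza (2.45 to 3.22) lay above both CPT (1.04 to 1.58) and Con (1.21 to 2.34). GTA+5-Aza (2.15 to 4.01) lay above CPT and overlapped Con. The 46554 untested genes of the whole table summed to 998 to 1084 CPM in Con and 961 to 1057 in CPT. They summed to 1081 to 1133 in GTA+5-Aza and 1063 to 1095 in CPT+GTA+5-Aza, so that they too lay higher in both primed groups than in CPT in every library. PCDHA5 had 4, 6 and 0 counts in GTA+5-Aza and none in Con. Its GTA+5-Aza mean of 0.171 ± 0.155 CPM (SD, n = 3) was 1.15 times the 0.149 CPM that 3 counts in each Con library would give. The same ratio for PCDHAC2, whose counts were 0, 7 and 2 in GTA+5-Aza, was 1.04. Both ratios take the GTA+5-Aza mean as exact, although each gene had a GTA+5-Aza library with no count.

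CPT was compared next, in unprimed and in primed cells. Whether the response of the tested members to CPT differed with priming is asked only by the interaction of CPT and priming. In CPT against Con, 0 members were called by edgeR, beside 0% of all genes, and 3 passed the study's thresholds, beside 1.83%. In CPT+GTA+5-Aza against GTA+5-Aza, 0 were called, beside 0%, and 0 passed the study's thresholds, beside 1%. For the interaction of CPT and priming, 0 were called, beside 0%, and 2 passed the study's thresholds, beside 1.78%. At an unadjusted P under 0.05 alone the members numbered 3, 0 and 2 of 16, beside 733, 464 and 451 of all 17123 genes. DESeq2 and edgeR's likelihood ratio test also called 0 members in each of these comparisons.

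In CPT against Con the 3 members were PCDHGA12, PCDHGA11 and PCDHGC5. PCDHGA12 had a log2 difference of 2.61 ± 0.96 (edgeR unadjusted P = 0.0112, adjusted p = 1), and its CPT counts of 4, 13 and 8 touched the highest Con count of 4. PCDHGC5 had a log2 difference of 1.60 ± 0.76 (unadjusted P = 0.0449, adjusted p = 1). PCDHGA11 had 6, 4 and 0 counts in Con and no count in CPT (edgeR unadjusted P = 0.0113, adjusted p = 1). Its Con mean of 0.169 ± 0.159 CPM (SD, n = 3), taken as exact, was 1.06 times the 0.159 CPM that 3 counts in each CPT library would give. PCDHGA11 had no count in Con replicate 3 either. Its neighbour PCDHGA12 had the opposite sign.

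In CPT+GTA+5-Aza against GTA+5-Aza the smallest P values belonged to PCDHB14, PCDHGB7 and PCDHGC4. PCDHB14 had a log2 difference of -1.39 ± 0.71 (edgeR unadjusted P = 0.0595, adjusted p = 1), with all 3 CPT+GTA+5-Aza counts below the GTA+5-Aza counts. PCDHGB7 had 49, 70 and 52 counts in GTA+5-Aza and 55, 33 and 36 in CPT+GTA+5-Aza, with a log2 difference of -0.37 ± 0.32 (unadjusted P = 0.256). PCDHGC4 had a log2 difference of -0.92 ± 0.93 (unadjusted P = 0.329). PCDHGA12 and PCDHGA11 were at 0.46 ± 0.66 and 0.33 ± 0.74 in this comparison, and both signs depended on 1 library: without CPT+GTA+5-Aza replicate 1 PCDHGA12 was at -0.19, and without replicate 2 PCDHGA11 was at -0.10. The 16 members had 5 positive and 11 negative values, with a median of -0.23, against 0.00 over all genes tested. In the interaction, the 2 members past the study's thresholds were PCDHGA11 (unadjusted P = 0.0133) and PCDHB14, at -2.02 ± 0.95 (unadjusted P = 0.043), both with an edgeR adjusted p of 1.

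**Figure D4:**
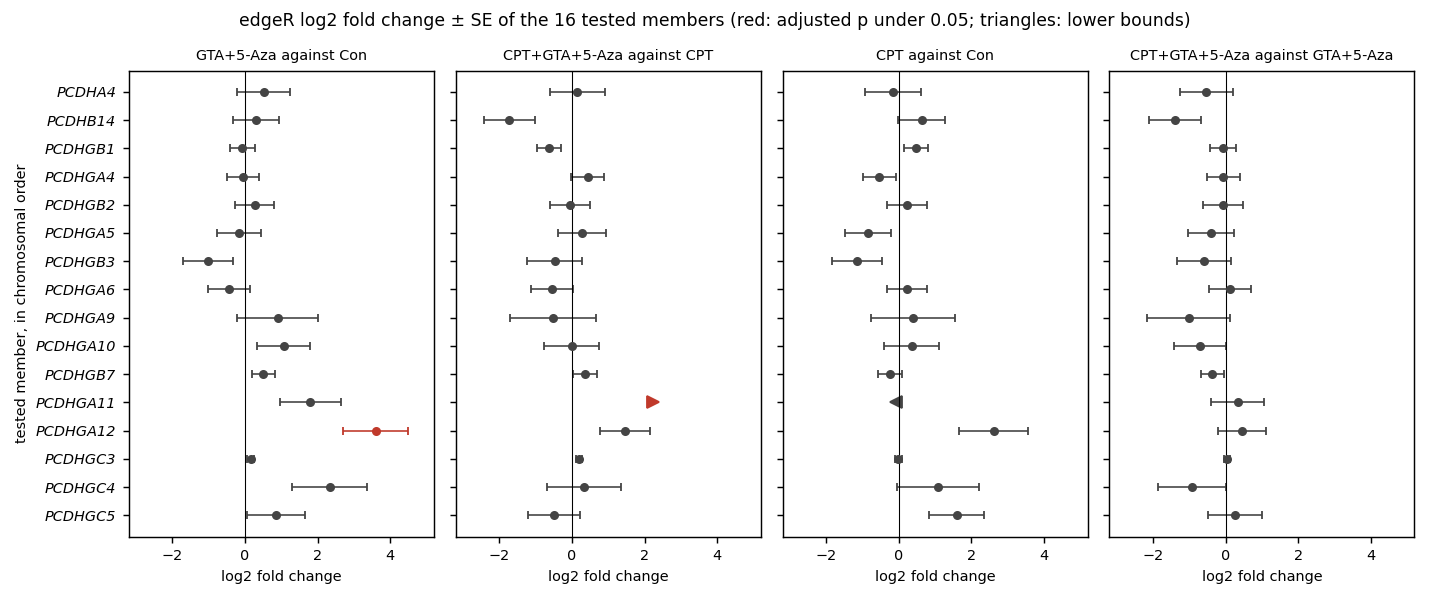
edgeR log2 fold change with its SE for the 16 tested members in chromosomal order, in both priming comparisons (left) and both CPT comparisons (right); red marks an adjusted p under 0.05 and triangles mark bounds against a group with no count. PCDHGA12 at 3.60 in GTA+5-Aza against Con and the PCDHGA11 bound of 4.71-fold in CPT+GTA+5-Aza against CPT are red, and no member is red in the CPT comparisons.

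Other genes of the pathway came from lists written down for this report. Of 16 listed regulators of the clusters, all were tested, and 1 was called higher and 4 lower in GTA+5-Aza against Con (31.2%, beside 17.5% of all genes; median -0.10). DNMT3B, a DNA methyltransferase known to act on protocadherin promoters, rose by 0.49 on the log2 scale (edgeR adjusted p = 0.00146). STAG1, a cohesin subunit, fell by 0.41 (0.000464). SMCHD1, a chromatin protein that keeps protocadherin clusters silent, fell by 0.32 (0.00211). WAPL, which releases cohesin from DNA, fell by 0.24 (0.0162), and REST, a repressor of neuronal genes, fell by 0.26 (0.0373). Both of these last calls were lost when 1 of Con replicates 1 and 3 or GTA+5-Aza replicates 1 and 3 was left out, with adjusted p between 0.0528 and 0.0675 for WAPL and between 0.119 and 0.173 for REST. CTCF and the cohesin subunits RAD21 and SMC3 were at log2 values of -0.10, -0.11 and -0.09 and were not called. With CPT in both groups, CPT+GTA+5-Aza against CPT, 1 regulator was called higher and 3 lower, with STAG1 at -0.38 (0.00111) and SMCHD1 at -0.31 (0.00342) called whichever library was left out. DNMT3B at 0.31 (0.0429) and WAPL at -0.21 (0.0436) were each called in only 5 of the 12 fits that left out 1 library, with adjusted p up to 0.186 and 0.232, both without CPT replicate 3, and DNMT3B was at 0.0522 with a replicate block. Either call was lost without Con replicate 3, CPT replicate 3, GTA+5-Aza replicate 1 or any CPT+GTA+5-Aza library, that of DNMT3B also without Con replicate 1 and that of WAPL also without CPT replicate 1.

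Of 15 partners and proteases, all were tested. ADAM10, the sheddase that cuts gamma protocadherins, was the 1 gene called in GTA+5-Aza against Con (6.67%, beside 17.5% of all genes). It fell by 0.24 on the log2 scale (edgeR adjusted p = 0.00788), a call that was lost without Con replicate 1 (0.0768). In CPT+GTA+5-Aza against CPT, 1 of the 15 was called higher and 3 lower (26.7%, beside 17% of all genes). ADAM10 was among those called lower there, at -0.26 (0.00375). Of 11 non-clustered protocadherins, 4 were tested and PCDH15 was called, falling by 0.42 in GTA+5-Aza against Con (0.00439). PCDH8, PCDH11X and PCDH19 had no count. The 4 pseudogenes inside the clusters had 8 to 31 counts over the 12 libraries and none was tested.

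Protein-coding genes within 500 kb of the clusters served to describe the surroundings. Of 30 listed, 28 were tested. In GTA+5-Aza against Con 4 were called higher and 0 lower, 14.3% beside 17.5% of all genes. Of all 17123 genes, 1703 were called higher and 1290 lower there. For CPT+GTA+5-Aza against CPT it was again 4 higher and 0 lower (14.3%, beside 17%). For CPT+GTA+5-Aza against Con it was 6 higher and 0 lower (21.4%, beside 16.8%). The share called in either direction was thus above that of the whole table only in the last of these. RELL2, FCHSD1 and ARAP3 follow each other 124, 126 and 140 kb after the last gamma exon. FCHSD1 rose by 1.04 on the log2 scale (edgeR adjusted p = 6.86e-05), ARAP3 by 1.10 (0.000522) and RELL2 by 0.97 (0.000552). In CPT+GTA+5-Aza against CPT the same 3 were at 0.71 (0.00342), 0.73 (0.0183) and 0.73 (0.00628), and ARAP3 was no longer called there without CPT replicate 3 (0.0982) or CPT+GTA+5-Aza replicate 1 (0.096). Exons of RELL2 and FCHSD1 overlap on opposite strands, so without strand their reads cannot be fully told apart. HBEGF, 440 kb before the first alpha member, rose by 0.60 (0.0153), a call lost without Con replicate 3 (0.128) or GTA+5-Aza replicate 2 (0.09). The genes nearest to gamma, DIAPH1 at 2.04 kb and HDAC3 at 108 kb, were at 0.05 and 0.03, and TAF7, which lies between the beta and gamma clusters, was at -0.01; none of these was called.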

How the data were processed

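The 12 deposited tables hold raw read counts per gene, which the authors made by trimming paired-end reads with Trim Galore, aligning them to GRCh38 with HISAT2 2.2.1 and counting with HTSeq 2.0.1. Groups and replicate numbers came from the labels. Members were matched by Ensembl identifier from GENCODE v44. The tests were run with edgeR 4.0.16 under R 4.3.3. Genes were kept by filterByExpr on the 4 groups (17123 tested), scaled by TMM and tested with glmQLFit and glmQLFTest in 1 fit over all 12 libraries, with Benjamini-Hochberg adjustment over all genes tested. The 6 comparisons were the 5 contrasts between groups and the interaction. CPM used the scaled library sizes, and CPM per kb divided by exonic bases that no other gene shares. Standard errors were derived from the quasi-likelihood F statistic. The code was tested on simulated data.

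Named members were those called in any comparison, the 3 highest per kb in each cluster, the C-type members and the 3 with the smallest P in each CPT comparison; of each list of other genes, up to 5 of those called in GTA+5-Aza against Con with the smallest P. Members and lists were chosen with earlier results of these data known. Alternatives were RLE scaling, library size alone, 2 other filters, DESeq2 1.42.0, the likelihood ratio test, a replicate block, only the groups compared, and leaving out each library.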

Additional observations from a re-analysis of the deposited data

How the results depend on the processing

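With CPM of at least 1 in 3 libraries only 9 members were tested, which left out PCDHGA11 and PCDHGA12, and 0 were called in each of the 3 priming comparisons. With only the groups compared, 9 members were tested in CPT+GTA+5-Aza against CPT, PCDHGA11 not among them, and 0 were called. The likelihood ratio test called 2 in GTA+5-Aza against Con (PCDHGC4 added), 2 in CPT+GTA+5-Aza against CPT (PCDHB14 added) and 2 in CPT+GTA+5-Aza against Con (PCDHGA11 added). Leaving out 1 library at a time gave 1 member in GTA+5-Aza against Con, 1 to 2 in CPT+GTA+5-Aza against CPT (2 without CPT replicate 2) and 1 to 2 in CPT+GTA+5-Aza against Con (2 without CPT+GTA+5-Aza replicate 2). RLE scaling, library size alone, no filter and DESeq2 left these counts at 1. PCDHGA12 passed in all 19 alternatives that tested it in GTA+5-Aza against Con, with adjusted p from 0.000111 to 0.0429, and PCDHGA11 in all 18 in CPT+GTA+5-Aza against CPT, from 7.45e-07 to 0.0128. These fits reuse the same counts, and some leave out a library of a group not compared, so they are not separate support. Both genes passed the filter on low counts mainly through the primed libraries. In CPT+GTA+5-Aza against GTA+5-Aza the sign reversed for PCDHGA11 and PCDHGA12 without 1 library each, with ranges of -0.10 to 0.65 and -0.19 to 0.93 on the log2 scale over the libraries left out. Same-numbered libraries correlated between groups at -0.084 to 0.117, which shows no pairing but, with 3 libraries per group, cannot exclude it. With the replicate block 1, 1 and 1 members were called in the priming comparisons and 0 in the others. Depth limits the members other than PCDHGC3, none of which exceeded 70 counts in a library.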
